A study of Mus musculus with 8 samples.

Results

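F-box proteins are the subunits of SCF ubiquitin ligases that bind the substrate. Quadriceps RNA of tumor-bearing and control mice was examined for the F-box genes named Fbxl (leucine-rich repeats), Fbxw (WD40 repeats) or Fbxo (other domains), leaving out Fbxo32, which encodes atrogin-1. The table of 53819 gene symbols held 79 symbols of these names, Fbxo32 among them, and the 50 others with a summed count of at least 80 over all 8 libraries were kept: 15 Fbxl, 27 Fbxo and 8 Fbxw genes. Of the 28 symbols below that sum, 17 had no count in any library. Just inside the limit were Fbxo27 with a sum of 82 and Fbxo5 with 91, and just outside it were Fbxl2 with 73 and the antisense gene Fbxl12os with 60. The filter on low counts kept 49 of the 50 for testing and left out Fbxo27.

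The 4 tumor-bearing mice had been given 500000 B0092 cells, a head and neck squamous cell carcinoma line, under the skin at the nape. The 4 control mice had received the PBS vehicle in the same way, although their labels also list the B0092 line. All were C57BL/6J mice labelled as wild type, 8 weeks old at the start, and muscle was taken on day 36, when tumor bearers were down by about 10% of their starting weight. A single tumor line was used, and sex was not given. The comparison asks how muscle RNA differs in tumor-bearing mice that lose weight.

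Each library came from 1 mouse and held 28436254 to 36139478 estimated counts. Levels are counts per 1000000 (CPM), scaled by the TMM method. Summed myofibre markers lay at 85354 to 168483 CPM in tumor libraries and 108983 to 166730 CPM in control libraries. All 8 markers were measured and tested, and 1 was higher and 1 lower. The squamous epithelial markers Krt5, Krt14, Krt6a and Dsg3 were at 0 in all 8 libraries. The whole squamous list of 8 summed to 17.8 to 39.4 CPM in tumor libraries and 8.53 to 11.6 CPM in control libraries. Of its 3 tested markers, 1 was higher. The endothelial markers summed to 60.9 to 107 CPM in tumor libraries and 121 to 184 CPM in control libraries, with 3 of 5 lower, and the fibro-adipogenic markers to 167 to 359 CPM in tumor libraries and 401 to 567 CPM in control libraries, with 2 of 5 lower. The 5 neutrophil markers summed to 1.12 to 4.48 CPM in tumor libraries and 0.0992 to 0.579 CPM in control libraries, and the 1 of them that could be tested was higher. The other 6 lists (macrophage, T and B cell, satellite cell, adipocyte, Schwann cell and erythroid) overlapped between the groups and gave no call. Among these, none of the T and B cell markers could be tested. The part of these cell types in the F-box values was not tested. In whole muscle, fewer cells of a type and less RNA per cell cannot be told apart.

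An SCF ligase is built on the cullin CUL1, which holds the RING protein RBX1 at one end and the adaptor SKP1 at the other. The F-box motif docks on SKP1, and the rest of the F-box protein chooses the substrate, so that many ligases share the same core. In muscle, FOXO transcription factors are known to switch on several of these subunits when growth signalling falls. Atrogin-1 is the best known, and Fbxo30 (MUSA1), Fbxo21 (SMART) and Fbxo31 belong to the same programme in mice.

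Of the F-box genes, 6 changed, none of them by 2-fold. Fbxo6, Fbxo31, Fbxw4, Fbxw8 and Fbxo38 were higher in tumor-bearing mice and Fbxl17 was lower (edgeR quasi-likelihood test, Benjamini-Hochberg over 14070 genes, threshold 0.05). The 6 called genes were 12.2% of the 49 tested, against 19.8% of all tested genes. The 5 higher ones were 10.2% of the 49, against 11.0% of all tested genes, and the single lower one was 2.04%, against 8.73%. The share of F-box genes that rose was therefore near the background, and the shares called in all and called lower were below it. The log2 fold changes of the 49 ran from -1.23 to 0.91 with a median of 0.12, against a median of 0.00 over all tested genes, and 29 were positive and 20 negative. The 9 genes whose groups did not overlap were 5 above and 4 below, where 25.0% of all tested genes had groups without overlap, 13.5% above and 11.5% below.

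By structural class, 2 of 8 tested Fbxw genes and 3 of 26 tested Fbxo genes rose and none of either fell, with median log2 fold changes of 0.31 and 0.12. Of the 15 Fbxl genes, none rose and Fbxl17 fell, and their median was -0.15. Within every class most genes did not pass the test. Whether the classes differ from each other was not tested.

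**Figure D1:**
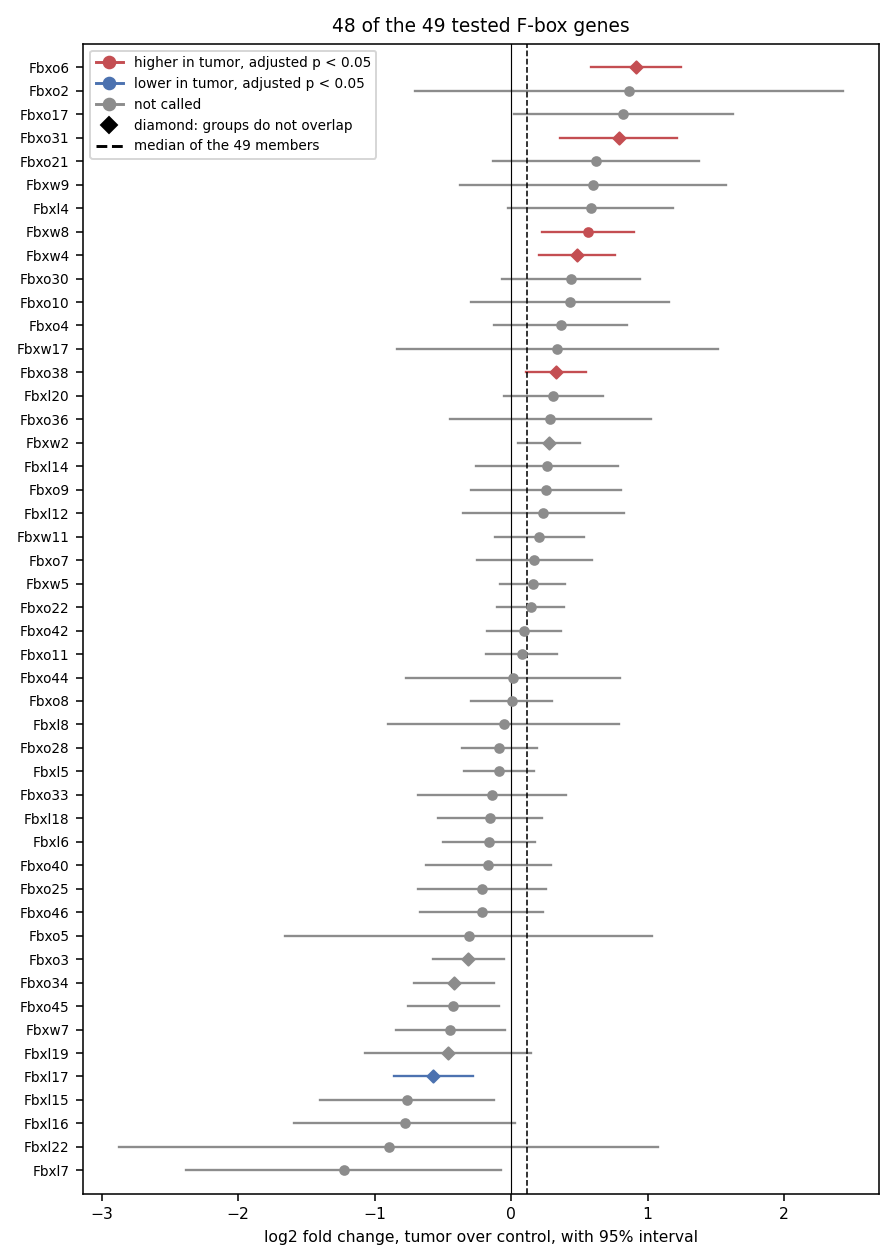
Log2 fold change (tumor over control) of 48 of the 49 tested F-box genes, with 95% intervals from the edgeR fit, ordered by size. The 5 genes called higher and Fbxl17, called lower, are marked. Most intervals span 0, and the widest belongs to Fbxl22, whose levels varied widely within both groups.

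The sequences just before the transcription start of these genes are shown for the called members that the RefSeq promoter table holds (Fbxo6, Fbxo31 and Fbxl17) and for 3 further members linked to muscle (Fbxo30, Fbxo21 and Fbxo40). Each is the 250 bases upstream of a RefSeq start on build GRCm38.p6, read 5′ to 3′ along the gene's strand. CG dinucleotides, the letters that make up CpG islands, are in capitals. For Fbxo6 and Fbxo40, which have several listed starts, the most upstream is given. The entries are Fbxo6 at chr4:148152136-148152385 (minus strand), Fbxo31 at chr8:121578807-121579056 (minus strand), Fbxl17 at chr17:63500581-63500830 (minus strand), Fbxo30 at chr10:11281337-11281586 (plus strand), Fbxo21 at chr5:117976520-117976769 (plus strand) and Fbxo40 at chr16:36990468-36990717 (minus strand).
Fbxo6: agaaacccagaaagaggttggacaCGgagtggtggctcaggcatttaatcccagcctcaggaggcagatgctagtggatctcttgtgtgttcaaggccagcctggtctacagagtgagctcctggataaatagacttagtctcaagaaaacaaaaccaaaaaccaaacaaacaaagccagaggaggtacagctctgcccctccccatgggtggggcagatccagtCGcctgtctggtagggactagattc
Fbxo31: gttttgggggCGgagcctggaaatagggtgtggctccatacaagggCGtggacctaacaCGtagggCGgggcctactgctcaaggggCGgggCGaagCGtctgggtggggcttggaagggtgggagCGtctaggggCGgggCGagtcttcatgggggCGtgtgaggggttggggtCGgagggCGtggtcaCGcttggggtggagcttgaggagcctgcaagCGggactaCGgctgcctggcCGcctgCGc
Fbxl17: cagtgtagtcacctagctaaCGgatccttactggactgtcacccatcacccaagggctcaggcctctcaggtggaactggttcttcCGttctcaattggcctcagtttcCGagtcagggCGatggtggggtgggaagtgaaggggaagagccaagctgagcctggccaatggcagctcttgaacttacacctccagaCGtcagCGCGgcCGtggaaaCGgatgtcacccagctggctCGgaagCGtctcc
Fbxo30: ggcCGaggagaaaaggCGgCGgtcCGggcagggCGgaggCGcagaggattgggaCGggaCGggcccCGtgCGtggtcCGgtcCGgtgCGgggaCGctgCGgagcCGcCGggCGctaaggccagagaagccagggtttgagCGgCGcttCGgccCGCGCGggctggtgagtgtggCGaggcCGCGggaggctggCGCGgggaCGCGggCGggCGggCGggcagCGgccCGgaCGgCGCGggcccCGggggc
Fbxo21: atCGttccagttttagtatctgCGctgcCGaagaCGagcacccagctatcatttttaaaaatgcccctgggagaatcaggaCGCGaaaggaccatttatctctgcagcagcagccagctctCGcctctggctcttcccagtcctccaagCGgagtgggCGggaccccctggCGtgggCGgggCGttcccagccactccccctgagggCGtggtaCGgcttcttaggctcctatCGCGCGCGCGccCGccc
Fbxo40: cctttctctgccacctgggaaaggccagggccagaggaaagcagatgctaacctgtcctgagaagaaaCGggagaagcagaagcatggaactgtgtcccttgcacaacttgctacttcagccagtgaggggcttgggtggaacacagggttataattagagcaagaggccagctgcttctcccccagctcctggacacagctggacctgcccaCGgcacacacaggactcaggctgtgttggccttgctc

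Upstream of Fbxo30 there were 40 CG dinucleotides and a GC content of 80.4%, the most of the 6, whereas upstream of Fbxo40 and of the outermost Fbxo6 start there were 2 each. Fbxo31 had 18, Fbxo21 had 20 and Fbxl17 had 11 CG dinucleotides. Over the 59 entries of the 40 members with one, the median was 14 CG dinucleotides and 58.4% GC, against 6 and 52.4% over all 32851 promoters of the same length. The other 2 listed starts of Fbxo6 had 9 and 18, so its count depends on the start chosen.

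Letter motifs were searched on both strands of the 250 bases, and none of the motifs contains another. The FOXO motif GTAAACA was in 0 of the 59 entries (3.17% of all promoters), and the palindromic motif of the glucocorticoid receptor was also in 0 (0.387%). The CCAAT box was in 20.3% of the entries, against 33.8% of all promoters, and among the called genes it was found upstream of Fbxl17 alone. The E box CACGTG was in 3.39% (all promoters 6.02%), both of them entries of Fbxo10, and the NRF1 motif in 5.08% (3.74%), upstream of Fbxo42, Fbxo7 and Fbxw5. A match or its absence in this window says nothing of binding in muscle.

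Fbxo6, which recognises N-linked glycans on misfolded glycoproteins and passes them to degradation from the endoplasmic reticulum, had the largest called rise. Its levels were 37.5, 40.7, 46.7 and 57.5 CPM in tumor libraries 1 to 4, against 21.9, 26.3, 25.1 and 23.5 CPM in control libraries 1 to 4. The lowest tumor library lay well above the highest control library. The means were 45.6 ± 8.81 CPM in tumor and 24.2 ± 1.95 CPM in control mice (SD, n = 4 each), a log2 fold change of 0.91 ± 0.15 (SE; 1.88-fold; edgeR adjusted p = 0.00499). It was the 1 member called under all 17 alternative settings.

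The other F-box genes listed here in the glycoprotein group were measured at lower levels and none of them passed the test. Fbxo17 had 8.46, 5.29, 8.74 and 15.1 CPM in tumor libraries and 5.01, 6.75, 6.80 and 2.64 CPM in control libraries, which overlap (log2 fold change 0.82 ± 0.36, edgeR adjusted p = 0.134). Fbxo2, which is best known from brain, was at 0.161 to 1.01 CPM in tumor libraries and 0.0696 to 0.463 CPM in control libraries, with a wide 95% interval of -0.70 to 2.43 for the log2 fold change. Fbxo44, a neighbour of Fbxo6 and Fbxo2 on chromosome 4, averaged 4.55 ± 2.36 CPM in tumor and 4.50 ± 1.02 CPM in control mice, a log2 fold change of 0.02. Fbxo27, the member too low to test, was at 0.132, 0.195, 0.225 and 0.833 CPM in tumor libraries and 0.278, 0.232, 0.579 and 0.0362 CPM in control libraries. The 4 tested genes of the group all had positive fold changes, of which 1 was called. Over all tested genes, 7060 of 14070 were positive. The sign of Fbxo44 reversed in 7 of the 17 alternatives. Whether the group shares a direction was not tested.

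Fbxo31, which marks cyclin D1 for degradation in dividing cells and is FOXO-dependent in mouse muscle, rose as well. It had 252, 408, 355 and 267 CPM in tumor libraries 1 to 4, against 179.7, 168, 161 and 234 CPM in control libraries 1 to 4. The groups did not overlap, and control library 4 came nearest to the tumor libraries. The log2 fold change was 0.79 ± 0.19 (SE; 1.73-fold, 95% interval 0.36 to 1.22; edgeR adjusted p = 0.0216). The call was lost when control library 1, 2 or 3 or tumor library 3 was left out, with adjusted p from 0.0600 to 0.0720, while the direction stayed.

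Fbxo30, the ubiquitin ligase MUSA1 of denervation and fasting atrophy, did not pass the test. It had 14.5, 19.4, 22.9 and 18.9 CPM in tumor libraries, against 10.3, 11.4, 13.7 and 20.5 CPM in control libraries. Control library 4 lay above 3 of the tumor libraries, so the groups overlap (log2 fold change 0.44 ± 0.23, 95% interval -0.07 to 0.94, edgeR adjusted p = 0.20). Without control library 4 the log2 fold change was 0.68 and the edgeR adjusted p was 0.0360. With 1 library left out at a time, the log2 fold change ran from 0.32 to 0.68. The edgeR adjusted p in those fits ran from 0.0360 to 0.410. Fbxo30 was called in 2 of the 17 alternatives, both without control library 4. Control library 4 also had the smallest share of the fast myosin Myh4 among adult myosin heavy chain counts, 64.6% against 88.5 to 98.0% in the other control libraries; in tumor libraries the share was 80.3% in library 2 and 95.2 to 98.9% in the others. With a Myh4 covariate in the edgeR fit Fbxo30 was not called, and with control library 4 and tumor library 2 both left out it was. Beyond these fits, the part of fibre composition in the Fbxo30 value was not tested.

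Fbxo21, the SMART ligase of FOXO-dependent atrophy, rested on 1 library. It had 17.5, 38.8, 19.3 and 11.4 CPM in tumor libraries, against 13.1, 19.2, 10.9 and 13.4 CPM in control libraries. Tumor library 2 stood at the top while tumor library 4 lay below 3 of the control libraries (log2 fold change 0.62 ± 0.34, 95% interval -0.14 to 1.38, edgeR adjusted p = 0.222). Leaving out 1 library at a time gave log2 fold changes from 0.15 to 0.83, the lowest without tumor library 2.

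Fbxo40, a muscle-specific F-box protein that degrades the insulin receptor substrate IRS1 in mice, had no detectable change. It had 383, 566, 339 and 284 CPM in tumor libraries, against 409, 436, 491 and 428 CPM in control libraries. Tumor library 2 was the highest of all 8 and the other tumor libraries were the lowest, a spread of 122 CPM (SD) in tumor and 35.3 CPM in control mice. The log2 fold change was -0.17 ± 0.21 with a 95% interval of -0.63 to 0.29 (edgeR adjusted p = 0.606).

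The remaining muscle-linked members also missed the threshold. Fbxl22, a sarcomeric F-box protein of the Z-disc, had 0.724, 0.292, 1.48 and 4.94 CPM in tumor libraries and 2.92, 0.761, 8.62 and 1.56 CPM in control libraries. Its log2 fold change of -0.90 had a 95% interval of -2.87 to 1.08, which spans a rise and a fall of 2-fold alike. Fbxo25, the closest paralog of atrogin-1, averaged 5.91 ± 1.26 CPM in tumor and 6.84 ± 1.33 CPM in control mice (log2 fold change -0.21 ± 0.21, edgeR adjusted p = 0.509). Of the 6 muscle-linked members, Fbxo31 was thus the single one called.

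**Figure D2:**
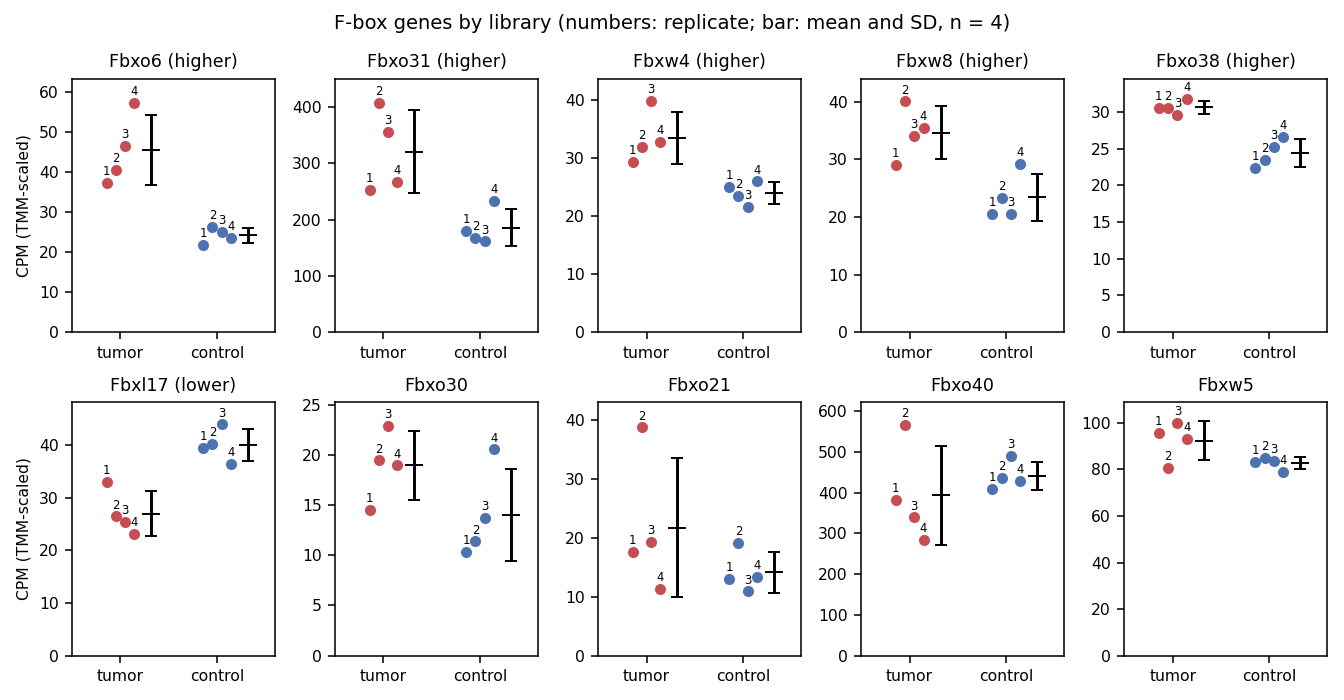
CPM of the 6 called F-box genes and of Fbxo30, Fbxo21, Fbxo40 and Fbxw5 in each library, with tumor libraries to the left of control libraries and bars at the group means with SD. Fbxo6, Fbxo31, Fbxw4, Fbxo38 and Fbxl17 have groups that do not overlap; tumor library 2 is the highest for Fbxo31, Fbxo21, Fbxo40 and Fbxw8.

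Atrogin-1 itself, the excluded comparison, was measured at 1991, 3867, 2623 and 845 CPM in tumor libraries, against 392, 489, 939 and 912 CPM in control libraries. It was higher by 1.77 ± 0.45 on the log2 scale (3.41-fold, edgeR adjusted p = 0.0258), although tumor library 4 lay below control libraries 3 and 4. Its call was lost with replicate number as a block and without control library 1 or 2 or tumor library 3. Fbxo31 in tumor library 4 was above every control library, at 267 CPM. Among tumor libraries only library 1 was lower for Fbxo31, at 252 CPM.

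Fbxw8, which pairs with CUL7 rather than CUL1 and targets IRS1, rose. It had 29.0, 40.1, 34.1 and 35.5 CPM in tumor libraries, against 20.6, 23.4, 20.5 and 29.2 CPM in control libraries. Tumor library 1 and control library 4 met at nearly the same level, and the other libraries were apart. The log2 fold change was 0.57 ± 0.15 (SE; 1.48-fold; edgeR adjusted p = 0.0286). The call was lost without control library 1, 2 or 3 or tumor library 2 or 3 (adjusted p 0.0678 to 0.0955). In the annotation at hand 1845 bases of Fbxw8 exons overlap Gm9754 on the opposite strand. Gm9754 was at 0 in 7 libraries and at 0.104 CPM in control library 1. The part of this overlap in the Fbxw8 value was not tested.

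The other members tied to the cell cycle or to growth signalling, which is the largest role group with 11 tested genes, did not pass the test. Fbxw7, the tumor suppressor that degrades cyclin E, MYC and Notch, had 26.7, 15.7, 20.1 and 20 CPM in tumor libraries, against 24.1, 25.1, 34.5 and 28.8 CPM in control libraries. Tumor library 1 overlapped the control libraries. The other tumor libraries lay below all control libraries (log2 fold change -0.45 ± 0.18, edgeR adjusted p = 0.106). With 1 library left out the edgeR adjusted p ran from 0.0372, without tumor library 1, to 0.249. Fbxw7 was called in 2 of the 17 alternatives. Fbxw11, or beta-TrCP2, which degrades beta-catenin and the NF-kappaB inhibitor, averaged 53.8 ± 9.05 CPM in tumor and 46.7 ± 5.26 CPM in control mice (log2 fold change 0.21 ± 0.15). Fbxo9, which acts on the mTOR cofactors TEL2 and TTI1, had 50.2, 41.1, 34.3 and 19.3 CPM in tumor libraries and 27.3 to 34.1 CPM in control libraries. Its tumor libraries lay on both sides of the control range. Fbxo4 averaged 2.75 CPM in tumor and 2.13 CPM in control mice (log2 fold change 0.36 ± 0.22, edgeR adjusted p = 0.265). Fbxl12 averaged 5.42 CPM in tumor and 4.61 CPM in control mice (log2 fold change 0.23 ± 0.26, edgeR adjusted p = 0.565).

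Several of the growth-linked members were measured precisely enough to bound a change. Fbxw5 had 95.9, 80.8, 99.9 and 93.2 CPM in tumor libraries and 83.4, 84.9, 83.8 and 78.8 CPM in control libraries, a 95% interval of -0.08 to 0.40 for the log2 fold change. The intervals were for Fbxo22, a ligase of the haem-regulated repressor BACH1, -0.10 to 0.39, for Fbxo11, a ligase of BCL6, -0.18 to 0.34, and for Fbxo42, which acts on p53, -0.18 to 0.37. Fbxo5, or EMI1, which restrains the anaphase-promoting complex in dividing cells, was near the floor with 0.201 to 0.395 CPM in tumor libraries and 0.0662 to 0.695 CPM in control libraries. Of the 43 tested members not called, 8 had an interval wholly within 0.5 on either side of 0 on the log2 scale, among them Fbxw5, Fbxo22, Fbxo42, Fbxl5, Fbxo28, Fbxo11 and Fbxo8.

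Fbxw4, the dactylin gene disrupted in the mouse limb mutant dactylaplasia, rose. It had 29.4, 31.9, 39.9 and 32.9 CPM in tumor libraries, against 25.1, 23.5, 21.6 and 26.0 CPM in control libraries. The groups did not overlap, and tumor library 3 was the highest. The log2 fold change was 0.48 ± 0.12 (SE; 1.4-fold; edgeR adjusted p = 0.0264). The call was lost without control library 1, 2 or 3 or tumor library 3 (adjusted p 0.0708 to 0.0800). Its exons share 34 bases with Gm17018 on the opposite strand, which averaged 5.30 ± 1.14 CPM in tumor and 8.53 ± 0.723 CPM in control mice. The part of this overlap in the Fbxw4 value was not tested.

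Fbxo38, known for turning over the checkpoint receptor PD-1 in T cells, had the smallest called rise. It had 30.5, 30.6, 29.6 and 31.8 CPM in tumor libraries, against 22.3, 23.4, 25.2 and 26.6 CPM in control libraries. The tumor libraries lay close together, with an SD of 0.886 CPM, and all above the control libraries. The log2 fold change was 0.33 ± 0.10 (SE; 1.26-fold; edgeR adjusted p = 0.0452). This is the least stable of the calls: leaving out any library but control library 4 lost it, with adjusted p from 0.0630 to 0.144.

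Fbxl17, which clears wrongly paired dimers of BTB-domain proteins, was the single member that fell. It had 33.0, 26.5, 25.4 and 23.2 CPM in tumor libraries, against 39.5, 40.3, 43.9 and 36.4 CPM in control libraries. Tumor library 1 came nearest to the control libraries, and the groups did not overlap. The log2 fold change was -0.57 ± 0.13 (SE; 1.48-fold lower; edgeR adjusted p = 0.0170). The call was lost without control library 1 or 2 or tumor library 3 (adjusted p 0.0513 to 0.0621).

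**Figure D3:**
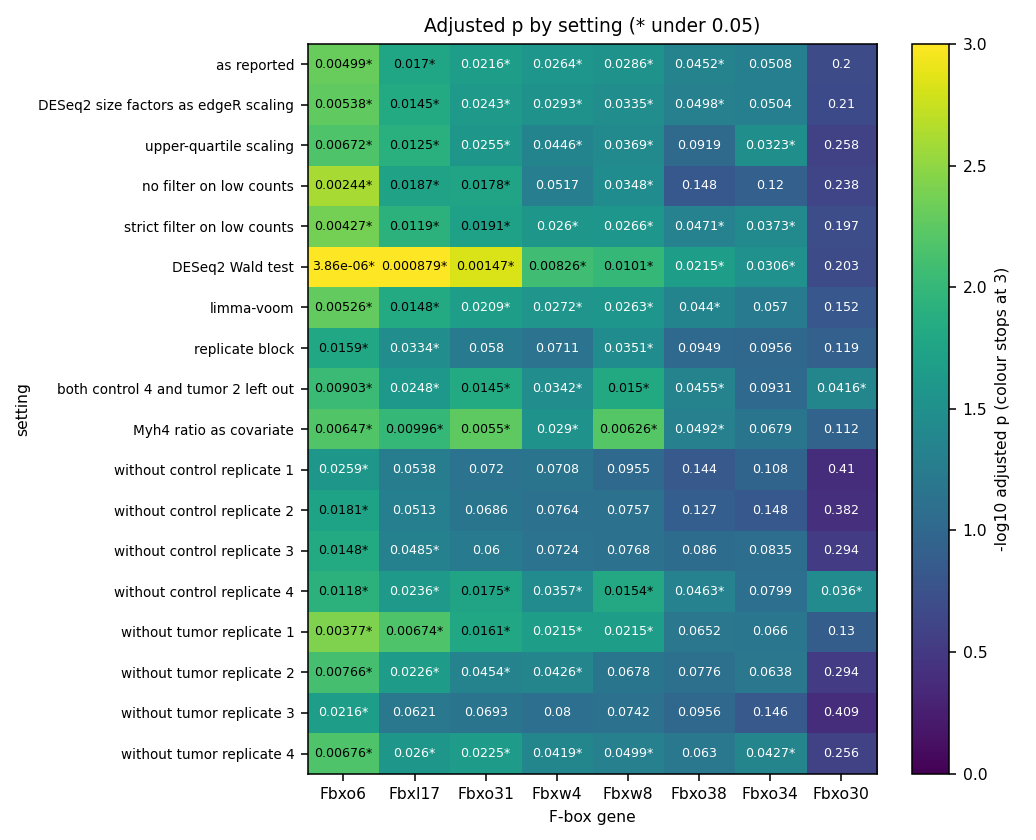
Adjusted p (colour: -log10) of the 6 called F-box genes and of Fbxo34 and Fbxo30, by setting, with values under 0.05 starred. Fbxo6 stays below 0.05 in every row; Fbxo38 passes in 7 of the 17 alternatives, and most calls are lost in the rows without tumor library 3 or control library 1 or 2.

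A further 4 members had groups that did not overlap but did not pass the test. Fbxo34 had 8.89, 8.24, 7.36 and 9.30 CPM in tumor libraries, against 10.8, 12.9, 10.6 and 10.8 CPM in control libraries, just short of the threshold with an edgeR adjusted p of 0.0508 (log2 fold change -0.42 ± 0.13). Fbxo3, which marks the F-box protein FBXL2 for degradation, had 85.7, 84.4, 70.8 and 68.2 CPM in tumor libraries, against 97.5, 95.9, 89.9 and 101 CPM in control libraries (-0.31 ± 0.12, edgeR adjusted p = 0.0845). Fbxw2 had 55.6, 48.6, 57.2 and 52.0 CPM in tumor libraries, against 41.6, 44.6, 43.2 and 46.7 CPM in control libraries (0.28 ± 0.10, edgeR adjusted p = 0.0817). Fbxl19 was at 1.03 to 1.95 CPM in tumor libraries and 2.11 to 2.81 CPM in control libraries (edgeR adjusted p = 0.257). Of these 4, Fbxw2 was above the control range and the others were below it. Fbxo45, a partner of the neuronal ligase MYCBP2, and Fbxl15, a ligase of SMURF1, also had negative values (-0.42 and -0.76) with edgeR adjusted p of 0.0719 and 0.0876, and in both tumor library 1 reached the control range. With the DESeq2 Wald test Fbxo34, Fbxo3, Fbxw2, Fbxo45 and Fbxl15 also passed the threshold, which made 22.4% of the 49 members called, against 26.0% of all tested genes.

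The iron and mitochondrial members gave no call. Fbxl5, the iron sensor that degrades IRP2, averaged 29.7 ± 3.67 CPM in tumor and 31.5 ± 1.5 CPM in control mice (-0.09, interval -0.35 to 0.17). This interval leaves room only for changes well under 2-fold.

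Fbxl4, which restrains mitophagy through the receptors BNIP3 and NIX, had 39.2, 25.0, 36.1 and 21.7 CPM in tumor libraries, against 19.8, 22.3, 27.6 and 11.7 CPM in control libraries. Tumor libraries 1 and 3 lay above all control libraries and the other tumor libraries lay among them (log2 fold change 0.58 ± 0.27, 95% interval -0.02 to 1.19, edgeR adjusted p = 0.158). Fbxo7, which works with PINK1 and Parkin, averaged 6.6 ± 1.55 CPM in tumor and 5.86 ± 0.551 CPM in control mice (0.17 ± 0.19, edgeR adjusted p = 0.561).

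The remaining members lay between these. Fbxl7 had the most negative log2 fold change, -1.23 with a 95% interval of -2.38 to -0.07, at 0.230 to 0.632 CPM in tumor libraries and 0.463 to 1.74 CPM in control libraries (edgeR adjusted p = 0.122). It passed the filter through the control libraries, of which 4 reached the filter level of 0.325 CPM against 2 tumor libraries. Fbxl16 averaged 1.37 ± 0.445 CPM in tumor and 2.35 ± 0.970 CPM in control mice (-0.78 ± 0.36, edgeR adjusted p = 0.158). Fbxl20 averaged 28.4 ± 5.14 CPM in tumor and 23.0 ± 3.54 CPM in control mice (0.31 ± 0.16, edgeR adjusted p = 0.209). At the other extreme Fbxo8 averaged 19.5 ± 2.76 CPM in tumor and 19.5 ± 1.68 CPM in control mice, a log2 fold change of 0.00.

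To compare genes with each other, CPM was divided by transcript length in kilobases (CPM per kb). On this scale Fbxo40 was the highest member, with 76.5 ± 23.8 CPM per kb in tumor and 85.8 ± 6.87 CPM per kb in control mice. Fbxo31 was next with 73.5 ± 17.0 CPM per kb in tumor and 42.6 ± 7.58 CPM per kb in control mice, and then Fbxw5 with 38.7 ± 3.45 CPM per kb in tumor and 34.6 ± 1.12 CPM per kb in control mice. In tumor mice the levels of Fbxo40 and Fbxo31 differed by less than their spread. In tumor mice Fbxl7 was the lowest, with 0.0849 CPM per kb against 0.202 CPM per kb in control mice, where Fbxo27 was lower with 0.145 CPM per kb.

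The ratio of Fbxo31 to Fbxo40 per length was 0.775, 0.848, 1.23 and 1.11 in tumor libraries, against 0.518, 0.453, 0.387 and 0.643 in control libraries. On this scale, which rests on a chosen transcript length for each gene, these 2 most abundant muscle-linked members were closer to equal in tumor mice. The groups do not overlap, as was already so for Fbxo31 alone. Summed over the 50 members, the level was 461, 503, 461 and 407 CPM per kb in tumor libraries, against 387, 402, 422 and 408 CPM per kb in control libraries. Tumor library 4 lay within the control range and the others above it. Atrogin-1 alone was 0.619, 1.1, 0.815 and 0.298 times that sum in tumor libraries, against 0.145, 0.174, 0.319 and 0.321 times in control libraries, so that in tumor library 2 it exceeded all 50 other members together.

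**Figure D4:**
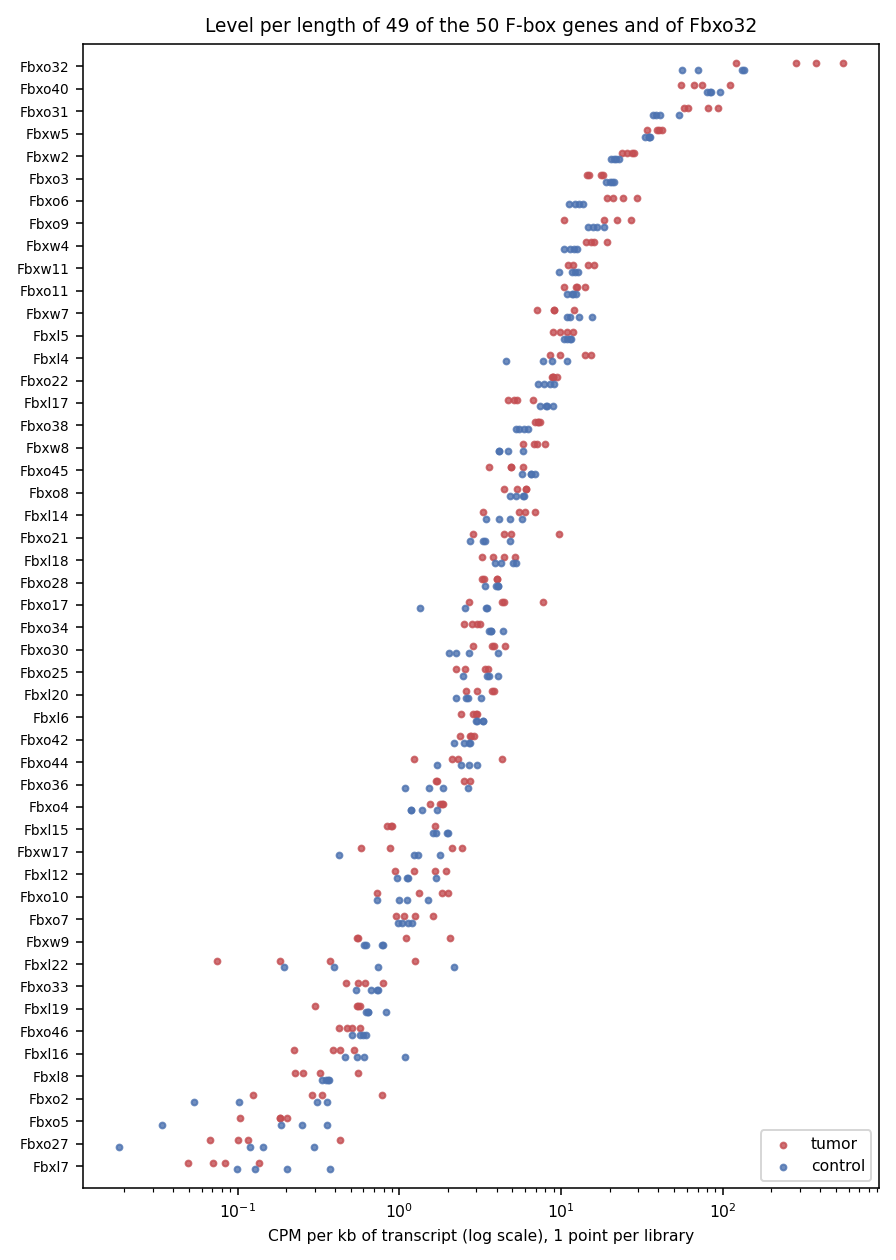
Level per transcript length (CPM per kb, log axis) of 49 of the 50 F-box genes and of Fbxo32, with 1 point for each tumor and control library and genes ordered by mean level. Fbxo40 and Fbxo31 lead the members, the 4 tumor libraries of Fbxo32 lie above every library of the plotted members, and Fbxl7, lowest by its mean over all libraries, is at the bottom.

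The tumor libraries did not move as a block over the 49 tested members. Tumor library 1 was the highest of the 4 for 21 members and the lowest for 7, and tumor library 4 was the highest for 11 and the lowest for 19. Tumor library 2 was highest for 10 and lowest for 16 members, and tumor library 3 for 7 and 7. Tumor library 4 also had a TMM factor of 1.22, where the other 7 libraries lay between 0.896 and 1.02. The called members were among the better measured: their median SE was 0.139 on the log2 scale against 0.218 for those not called, and their median average log2 CPM 4.97 against 3.31.

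The rest of the SCF machinery was followed through 43 tested genes. They covered the core, other F-box proteins, NEDD8 conjugation, the COP9 signalosome, exchange and inhibition factors, and E2 enzymes with the partner ligase Arih1. Of these, 8 rose and 1 fell, 20.9% called against 19.8% of all tested genes, with a median log2 fold change of 0.13. Calls fell on 2 of 4 core genes, 4 of 10 COP9 signalosome genes and 2 of 7 other F-box genes. The E2 enzymes and the partner ligase held 1 call among 8 genes. None of the 11 NEDD8 genes or the 3 exchange and inhibition factors was called. Cul1, the scaffold of the ligase, had 99.3, 147, 132 and 118 CPM in tumor libraries, against 71.5, 76.9, 82.8 and 70.3 CPM in control libraries. All tumor libraries were above all control libraries (log2 fold change 0.72 ± 0.14, edgeR adjusted p = 0.00916), and Cul1 was called in all 17 alternatives.

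The COP9 signalosome removes NEDD8 from cullins and so lets the F-box subunit be exchanged. Its catalytic subunit Cops5 averaged 125 ± 27.5 CPM in tumor and 79.4 ± 4.84 CPM in control mice (0.66 ± 0.16, edgeR adjusted p = 0.0207). Cops3 averaged 79.0 ± 7.79 CPM in tumor and 56.6 ± 1.48 CPM in control mice (0.48 ± 0.11, edgeR adjusted p = 0.0152). Both subunits rose, and neither call held when tumor library 3 or control library 1 or 2 was left out. Fbh1, an F-box DNA helicase, fell: it averaged 16.2 ± 2.22 CPM in tumor and 23.6 ± 0.580 CPM in control mice (-0.54 ± 0.12, edgeR adjusted p = 0.0150), a call lost without control library 1 or tumor library 3.

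**Figure D5:**
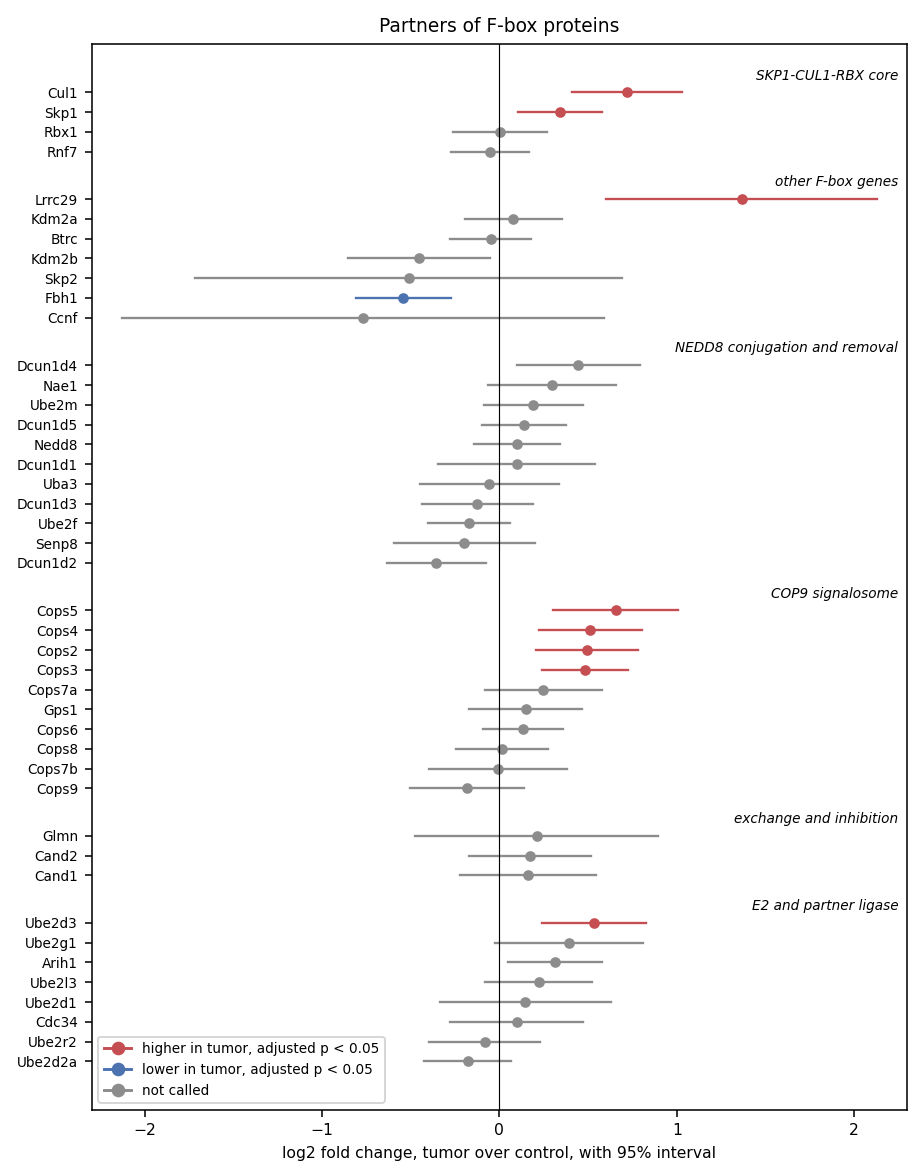
Log2 fold change (tumor over control) with 95% intervals of the other SCF pathway genes, grouped by role. Calls lie mostly in the core (Cul1) and the COP9 signalosome (Cops3, Cops5), and Fbh1 is the single gene called lower.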

How the data were processed

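Quadriceps RNA of 8 mice (4 tumor, 4 control) was sequenced, with a library for each mouse. RNeasy Mini columns and Universal Plus mRNA-Seq library chemistry were used, per the labels' protocols. The authors deposited 1 table of estimated counts per gene symbol, 9% of them not whole. Such counts divide reads shared by near-identical or overlapping genes, so those values are less certain. The submitters' processing notes name Salmon 1.10.1, STAR 2.7.9a, R 4.2.2, Trim Galore 0.6.7 and cutadapt 3.4, and build GRCm39. The sources used here do not give strand setting, sex or batch.

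The estimated counts were rounded to whole numbers, giving 28436254 to 36139478 per library. The edgeR function filterByExpr (minimum count 10) kept 14070 genes with 99.92% of counts. Groups were compared with the two-sided edgeR quasi-likelihood test (edgeR 4.0.16, R 4.3.3), with TMM scaling and group as the only term, Benjamini-Hochberg adjustment over all tested genes and a cutoff at 0.05. Biological variation between mice (edgeR) had a coefficient of 30.1%. SEs are the log2 fold change over the root of its F statistic. Alternatives were DESeq2 1.42.0, limma-voom (limma 3.58.1), DESeq2 or upper-quartile scaling, no or a strict filter, a replicate block, a Myh4 covariate, and libraries left out.

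Transcript lengths and exon overlaps came from GENCODE M21 (build GRCm38), matched by symbol, and promoters from RefSeq (GRCm38.p6). On data simulated for 14070 genes, of which 13781 passed the filter, 35% of 100 genes changed 2-fold and 82% of 100 changed 4-fold were recovered, 0 with a false direction. The simulated calls numbered 122, including 5 unchanged genes, against 2781 calls in the real data. With fewer genes changed the adjusted cutoff is stricter, so these shares are not the sensitivity of the tumor comparison. Counts of same-group libraries differed beyond sampling noise (chi-square per gene 29.3 to 323), so all were kept as replicates.

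Described with a value in every library were Fbxo30, Fbxo21, Fbxo31, Fbxo40, the called members and the 3 highest per length. Members with fixed roles were given by value or range, and up to 4 called partner genes with the smallest p were named. The remaining named members were chosen after their values were seen. The members, role groups and lists were chosen with earlier results of these data known. The values of 1 member are not reported here.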

Additional observations from a re-analysis of the deposited data

Results flagged for a closer look

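Over the 100 groups of 4 libraries (50 members in tumor and in control mice), 5 had a library far from the other 3 by Dixon's test at the 95% level, where chance flags about 1 in 20. In tumor mice, Fbxl15 had 2.24 CPM in library 1 against 1.14 to 1.22 CPM in the others, Fbxl19 had 1.03 CPM in library 3 against 1.88 to 1.95 CPM, and Fbxo27 had 0.833 CPM in library 4 against 0.132 to 0.225 CPM. In control mice, library 2 stood apart with 12.9 CPM of Fbxo34 against 10.6 to 10.8 CPM, and with 2.81 CPM of Fbxl19 against 2.11 to 2.19 CPM. None of these genes was called.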

How the results depend on the processing

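The 6 F-box calls (5 higher, 1 lower) became 11 (5 of them lower) with DESeq2 and 3 (2 higher) with the replicate block. Without a filter 3 were higher, and 4 were lower with upper-quartile scaling and 2 each with the strict filter or the Myh4 covariate. Leaving out 1 library gave 1 to 8 calls, 1 to 6 of them higher and 0 to 4 lower, with 1 call when tumor library 3 or control library 1 or 2 was out, 2 when control library 3 was and 4 when tumor library 2 was. With both control 4 and tumor 2 left out there were 7. The median F-box log2 fold change of 0.12 was 0.041 with upper-quartile scaling, which moved the median of all genes to -0.07, and 0.029 to 0.14 with 1 library left out. Over all genes, 2781 calls (55.8% higher; 43.0% with upper-quartile scaling) became 3659 with DESeq2 and 1932 with the block (1014 higher), and 1110 to 2845 with 1 library left out (630 to 1551 higher, 480 to 1450 lower). The 9 SCF partner calls became 5 (4 higher) without a filter and likewise with the block. Partner genes called lower numbered 2 with upper-quartile scaling, the strict filter or DESeq2 and 3 with the covariate. With 1 library left out there were 1 to 11 partner calls, 1 to 9 higher and 0 to 2 lower. The cause of these shifts was not tested. The labels state no pairing of mice by replicate number. Same-numbered tumor and control libraries had correlations of their deviations of 0.0281, 0.131, 0.197 and 0.0158, against -0.311 to 0.148 for other pairs. Not every library correlated best with its own number. Whether same-numbered libraries shared handling was not tested and cannot be told from these values. Of the calls, Fbxo31 (adjusted p = 0.0580), Fbxw4 (0.0711) and Fbxo38 (0.0949) were lost under the block in edgeR. Fbxo38 was also lost with upper-quartile scaling (0.0919) and, like Fbxw4 (0.0517), without a filter. Signs reversed only in uncalled genes. Fbxo8 gave -0.000941 with DESeq2 scaling, -0.074 with upper quartile, -0.00713 without filter, -0.020 with the strict filter, -0.019 with the covariate, -0.00154 with DESeq2, -0.00805 with voom, -0.00275 with the block, -0.11 with both libraries out and -0.079 to 0.082 with 1 library left out. Fbxo44 gave -0.065 with upper quartile, -0.00995 with the strict filter, -0.11 with voom, -0.10 with the block, -0.28 with both out and -0.42 to 0.23 with 1 left out. With both out, Fbxo33 gave 0.000684 and Fbxo42 -0.015. Fbxw17 gave -0.00427 with the covariate. With 1 library left out, Fbxw17 ranged from -0.027 to 0.60, Fbxl22 from -2.07 to 0.10, Fbxl8 from -0.39 to 0.085, Fbxo11 from -0.022 to 0.15 and Fbxo5 from -0.66 to 0.10. The low members Fbxo2, Fbxo5, Fbxl7 and Fbxl22 had intervals too wide to bound a change within 2-fold, and Fbxo27 had too few counts to test. Some members of higher level also had intervals reaching past 2-fold, such as Fbxo17 (0.02 to 1.63) and Fbxo21 (-0.14 to 1.38).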
